A study of Homo sapiens with 2 samples.

Results

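Solute carriers are membrane proteins that move amino acids, sugars, vitamins, nucleotides or ions across the plasma membrane and the membranes of lysosomes, mitochondria and the Golgi. The genes described here had a symbol of the form SLC, a family number, a letter and a member number in the table that names the array's probe sets, and a mean log2 value of 8.021 or more over the 2 arrays. That threshold is the median of all named genes. The table names 20 genes with a symbol of this form, and 17 of them met the threshold, out of 7440 of 14884 named genes that did. The RefSeq gene table holds 389 symbols of this form, and the other 369 were not analysed here. Among these are the well-known carriers of glucose, lactate, glutamate and large neutral amino acids, so the 17 do not stand for the whole family. The members were chosen by their level, which is given only as a description. The rule does not use the difference between the arrays, although it was written with earlier results of these data known.

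The RNA was that of UACC62, an established line of human melanoma cells grown in serum-containing medium. An siRNA specific for FOSL1 was transfected into the cells of 1 array, and a non-targeting siRNA into the cells of the other, and both were harvested after 3 days. FOSL1, also called FRA1, is a FOS-family protein that pairs with JUN proteins in the transcription factor AP-1, and the series title concerns its part in the reprogramming of melanocytes. Each condition was 1 array, so no test could be run, no p-value or replicate error is given, and every difference describes these 2 arrays. The labels do not say whether the siRNA was 1 sequence or a pool, and its effects on other genes cannot be told apart from those of FOSL1 depletion.

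FOSL1 itself had a log2 value of 10.38 with FOSL1 siRNA and 11.90 with control siRNA, a difference of -1.53 and the lowest of the 7440 genes. Of 15 melanocyte lineage markers, 13 were named and 9 passed the level threshold, among them MITF, SOX10, TYR, MLANA and S100B. The 9 lay on both sides of 0, with a median difference of -0.08. MLPH (-0.41) and TYR (-0.34) were at least 20% lower with FOSL1 siRNA, beside 5.91% of all genes. MITF (0.36) and PAX3 (0.34) were at least 25% higher, beside 7.38% of all genes, and SOX10 had a difference of -0.30. TYRP1, PMEL, GPR143 and OCA2 lay under the threshold, with mean log2 values between 6.45 and 6.78. Of 24 markers of epithelia, fibroblasts, endothelium and leukocytes, 14 were named and 4 passed, namely KRT18, LUM, KDR and CD68. With FOSL1 siRNA, LUM was at 11.53, against 11.05 with control siRNA, and CD68 was at 10.17, against 10.79 with control siRNA. KRT18 had a difference of -0.26 and KDR of 0.19. DCN, the other fibroblast marker named, lay far under the threshold, at 3.97 with FOSL1 siRNA and 4.15 with control siRNA. The part of these differences in the results below was not tested. In cultured cells measured in bulk, fewer cells that express a gene and less of its RNA per cell cannot be told apart.

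Most of the 17 solute carriers had a lower value with FOSL1 siRNA, by small amounts. The difference, FOSL1 siRNA minus control siRNA on the log2 scale, was below 0 for 14 of the 17, where 50.1% of all 7440 genes were below 0. The median difference of the 17 was -0.11, beside a median of -0.00077 over all 7440 genes, and the members ran between -0.37 and 0.12. At least 20% lower, a log2 difference of -0.32, were 3 members: SLC33A2, SLC66A1 and SLC75A1. Of all genes, 5.91% were at least that much lower. None of the 17 was at least 25% higher, the same distance from 0 on the log2 scale, where 7.38% of all genes were. At 1.5-fold, 0 members were lower and 0 higher, beside 0.766% and 1.13% of all genes. The 7440 genes include non-coding ones, while all 17 members are protein-coding. Of the 6926 protein-coding genes that met the threshold, 49.3% were below 0 and 344 were at least 20% lower.

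**Figure D1:**
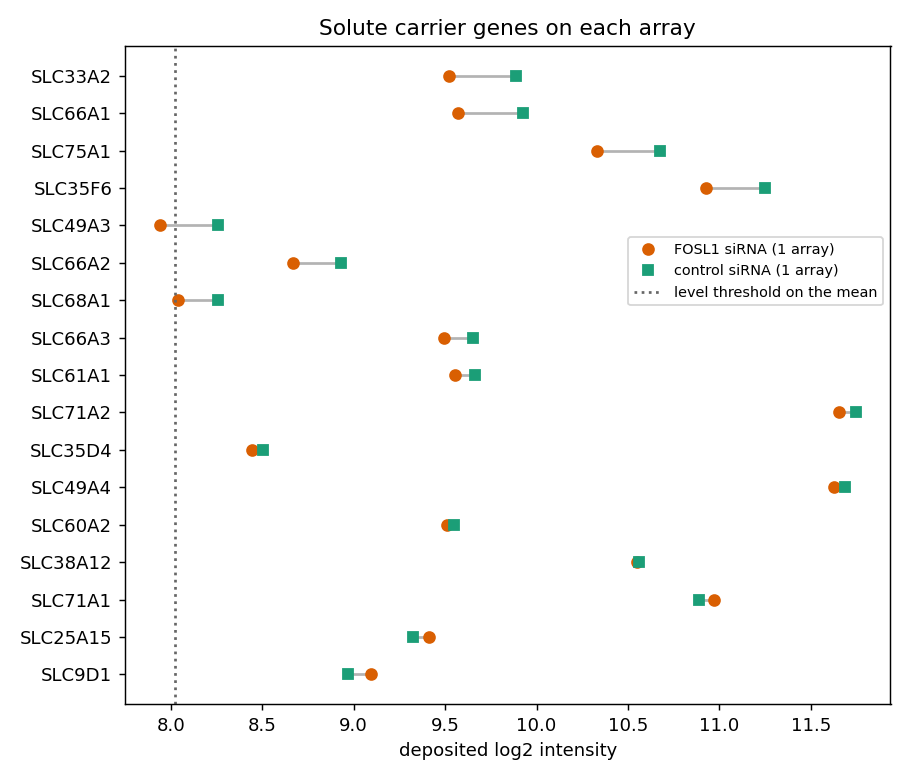
Deposited log2 intensity (horizontal axis) of each of the 17 solute carrier genes on the FOSL1 siRNA array (circles) and the control siRNA array (squares), with genes ordered by their difference and the level threshold of 8.021 dotted. The circle lies left of the square for 14 genes, and right of it for SLC71A1, SLC25A15 and SLC9D1.

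Each member was measured by 1 probe set, so no member had another probe set to check it. Among 213 other genes with several probe sets past the threshold, the differences of the 2 brightest lay a median of 0.0822 apart. From the same pairs the SD between probe sets was 0.169. The differences of 7 members exceeded that SD, all of them toward lower values with FOSL1 siRNA. The share of all 7440 genes beyond that SD was not counted. The lower and upper quartiles of their differences were -0.133 and 0.137, so differences of about this size were common. That SD says nothing of how much separate cultures vary. Since each probe set has its own response, the log2 values of different genes are not set against each other.

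The upstream sequences of 3 genes are shown because the results below turn on SLC66A1 and SLC75A1, which are among the members at least 20% lower, and because SLC60A2 carries a motif that was searched. Each is the 250 bases before the gene's start, 5' to 3' on the strand of the gene, from RefSeq on GRCh38.p14. Capitals mark CACGTG, an E-box bound by MITF and related factors.
SLC66A1, chr1:19312076-19312325, plus strand: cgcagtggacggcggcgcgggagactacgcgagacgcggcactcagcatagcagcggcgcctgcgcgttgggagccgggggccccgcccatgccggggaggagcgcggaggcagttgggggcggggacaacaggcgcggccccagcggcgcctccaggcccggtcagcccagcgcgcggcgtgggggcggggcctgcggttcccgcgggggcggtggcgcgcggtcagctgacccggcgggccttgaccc
SLC75A1, chr4:2934826-2935075, minus strand: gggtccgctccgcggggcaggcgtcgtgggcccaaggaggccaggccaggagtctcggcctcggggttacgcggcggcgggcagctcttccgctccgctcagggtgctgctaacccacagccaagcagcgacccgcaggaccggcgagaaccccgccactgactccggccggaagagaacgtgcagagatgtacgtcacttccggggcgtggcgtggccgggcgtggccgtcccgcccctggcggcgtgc
SLC60A2, chr6:111259089-111259338, plus strand: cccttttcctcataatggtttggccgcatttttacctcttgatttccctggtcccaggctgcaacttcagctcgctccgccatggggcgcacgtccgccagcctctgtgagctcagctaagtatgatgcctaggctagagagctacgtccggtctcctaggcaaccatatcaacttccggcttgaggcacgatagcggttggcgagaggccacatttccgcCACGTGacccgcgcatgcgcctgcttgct
RefSeq windows of 250 bases before to 50 after the start were matched by symbol for 13 of the 17 members. SLC33A2, which had the lowest difference of the members, SLC35F6, SLC66A2 and SLC35D4 had no matched window and were not searched. The AP-1 letters TGANTCA, searched on both strands, occurred in 0 of the 13, in 7.76% of all 27305 windows and in 4.27% of the 5994 windows of genes that passed the level threshold. CACGTG, which reads the same on both strands, occurred in 2 of the 13, SLC60A2 and SLC61A1, in 7.43% of all windows and in 10.5% of those of genes that passed. In SLC60A2 its first base lies 29 bases before the start, and in SLC61A1 it spans the start and is not printed. The end of CACGTG and the beginning of TGANTCA can share letters, but no member's window holds both. A match is a description of the letters and not of binding, and no match says only that the letters are not in the window.

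The 3 PQ-loop carriers were all lower with FOSL1 siRNA, where 50.1% of all genes were. PQ-loop proteins are small carriers with a repeated motif named for its proline and glutamine residues. SLC66A1, formerly PQLC2, exports lysine, arginine and other cationic amino acids from the lysosome. It had a log2 value of 9.57 with FOSL1 siRNA and 9.93 with control siRNA. Its difference was thus -0.36, or 1.28-fold, and 4.33% of the 7440 genes had a lower one. SLC66A2, formerly PQLC1, was at 8.67 with FOSL1 siRNA and at 8.93 with control siRNA, a difference of -0.26. SLC66A3, formerly PQLC3, was at 9.49 with FOSL1 siRNA and at 9.65 with control siRNA, a difference of -0.16 that is smaller than the SD between probe sets. The median difference of the 3 was -0.26, and 1 of the 3 was at least 20% lower, beside 5.91% of all genes.

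Of 9 carriers of the major facilitator superfamily, 8 were below 0, beside 50.1% of all genes. At least 20% lower were 2 of the 9, beside 5.91% of all genes, and the median difference was -0.11. This superfamily holds single-chain carriers that alternate between facing one side of the membrane and the other. In RefSeq, 8 of the 9 have an older symbol with the stem MFSD.

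SLC33A2, formerly MFSD3, resembles SLC33A1, which carries acetyl-CoA into the secretory pathway. It was at 9.52 with FOSL1 siRNA and at 9.89 with control siRNA. No other member had a lower difference than its -0.37, or 1.29-fold, and 3.99% of all genes lay below it. SLC75A1, formerly MFSD10 or TETRAN, was named for its likeness to bacterial tetracycline transporters. It was at 10.33 with FOSL1 siRNA and at 10.67 with control siRNA, a difference of -0.34 or 1.27-fold lower, with 4.83% of genes below it. Both genes are short, with spans of 2144 and 4259 bases, and short genes tended to lower differences on these arrays. With the trend on span removed, neither was at least 20% lower.

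The SLC49 family, which also holds the heme and choline transporters FLVCR1 and FLVCR2, had 2 members with unlike differences. SLC49A3, formerly MFSD7, was at 7.94 with FOSL1 siRNA and at 8.26 with control siRNA, a difference of -0.32 that lay just short of 20% lower. Its value with FOSL1 siRNA was the only member value under the level threshold. SLC49A4, also called DIRC2, is a lysosomal membrane protein and was at 11.63 with FOSL1 siRNA and at 11.68 with control siRNA. Its difference of -0.06 was within the SD between probe sets.

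SLC68A1, formerly MFSD13A, was at 8.04 with FOSL1 siRNA and at 8.26 with control siRNA, a difference of -0.22. SLC61A1, formerly MFSD5, is known as a likely molybdate transporter from its resemblance to a protein of the green alga Chlamydomonas. It was at 9.55 with FOSL1 siRNA and at 9.66 with control siRNA, a difference of -0.11. SLC60A2, formerly MFSD4B, corresponds to a sodium-dependent glucose transporter described in rat kidney. It was at 9.51 with FOSL1 siRNA and at 9.55 with control siRNA, a difference of -0.04. The last 2 differences were within the SD between probe sets, and both genes carry CACGTG in their windows.

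The paralogues SLC71A1 and SLC71A2, formerly MFSD14A and MFSD14B, lay on opposite sides of 0 by small amounts. In mice, loss of Mfsd14a impairs the shaping of the sperm head. SLC71A1 was at 10.97 with FOSL1 siRNA and at 10.89 with control siRNA, a difference of 0.09. SLC71A2 was at 11.66 with FOSL1 siRNA and at 11.74 with control siRNA, a difference of -0.09. Neither difference exceeded the SD between probe sets.

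**Figure D2:**
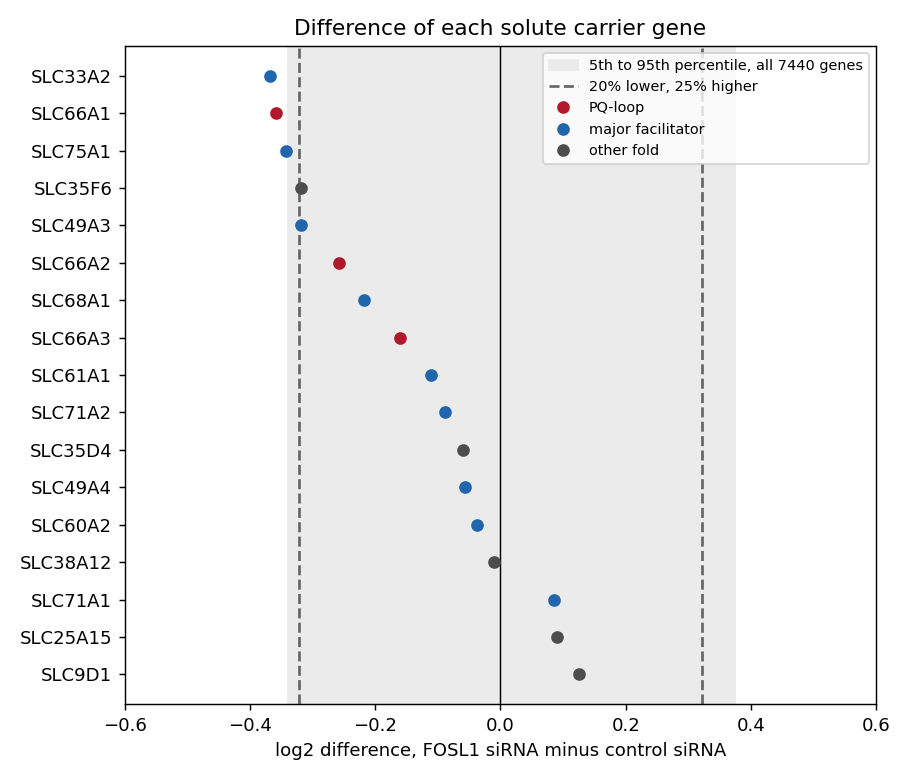
Log2 difference (horizontal axis, FOSL1 siRNA minus control siRNA) of each of the 17 solute carrier genes, coloured by protein class, with the 5th to 95th percentile of all 7440 genes shaded (-0.34 to 0.37) and the limits of 20% lower and 25% higher dashed. The 3 genes beyond the left dashed line, SLC33A2, SLC66A1 and SLC75A1, also lie below the 5th percentile, and no gene lies above the 95th.

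The 5 members of other folds lay on both sides, with 3 below 0, beside 50.1% of all genes, and a median difference of -0.01. SLC35F6 belongs to the family of nucleotide-sugar transporters and has been found with the adenine nucleotide carrier ANT2, whence its name ANT2BP. It was at 10.93 with FOSL1 siRNA and at 11.25 with control siRNA. Its difference of -0.32 lay just short of 20% lower, and 6.08% of all genes lay below it. SLC35D4, formerly TMEM241, is of the same family and was at 8.45 with FOSL1 siRNA and at 8.51 with control siRNA, a difference of -0.06. SLC38A12, formerly TMEM104, is grouped with the amino acid carriers of the SLC38 family. It was at 10.55 with FOSL1 siRNA and at 10.56 with control siRNA, a difference of -0.01.

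The other two were higher with FOSL1 siRNA, though the SD between probe sets was larger than either difference. SLC25A15 is the mitochondrial ornithine carrier of the urea cycle, and its loss causes the hyperornithinemia syndrome HHH. It was at 9.41 with FOSL1 siRNA and at 9.32 with control siRNA, a difference of 0.09. SLC25A2, a single-exon gene for a closely related ornithine carrier, could share signal with it, but this was not tested. The value of each is thus uncertain, and SLC25A2 had a difference of -0.24. SLC9D1, formerly TMCO3, resembles cation and proton antiporters. It was at 9.09 with FOSL1 siRNA and at 8.97 with control siRNA, and its difference of 0.12 was the highest of the 17.

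Under the threshold on level lay 3 genes with a symbol of the same form. SLC67A2, formerly MFSD9, was at 7.99 with FOSL1 siRNA and at 7.88 with control siRNA. SLC25A2 was at 7.47 with FOSL1 siRNA and at 7.71 with control siRNA, and SLC60A1, a paralogue of SLC60A2, was at 6.93 with FOSL1 siRNA and at 7.04 with control siRNA. Nearest above the threshold lay SLC49A3, with a mean of 8.10, and SLC68A1, with a mean of 8.15.

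Gene span, the distance in bases between the ends of a gene in RefSeq on GRCh38.p14, moved with the difference over all genes. In the shortest quintile of the 7440 genes the median difference was -0.11 and 72.4% of genes were below 0, while in the longest quintile the median was 0.09 and 31.7% were below 0. The members spanned between 2144 and 199440 bases with a median of 22850, beside a median of 27446 for all genes. All 6 members in the 2 shorter quintiles were below 0, where 72.4% and 60.5% of genes in these quintiles were. In the middle quintile 3 of 4 members were below 0, beside 48.1% of genes. In the next longer quintile 4 of 6 were, beside 37.6%. The 1 member in the longest quintile, SLC35D4, was also below 0.

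**Figure D3:**
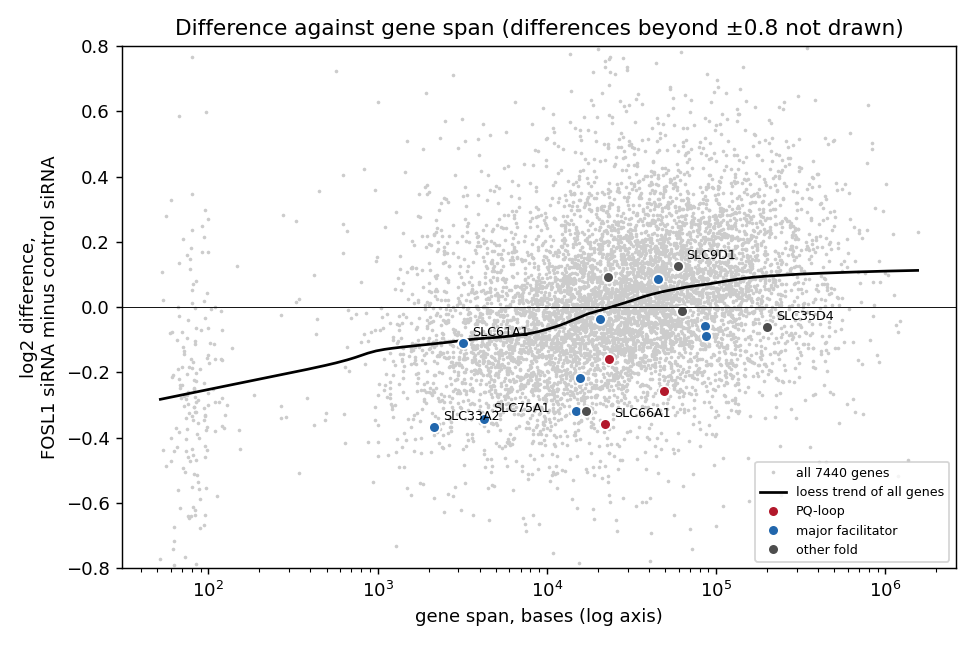
Log2 difference (vertical axis, FOSL1 siRNA minus control siRNA) against gene span in bases (log axis) for all 7440 genes (grey), with the loess trend of all genes (line) and the 17 solute carrier genes coloured by protein class. The members SLC33A2 and SLC75A1 lie at the short end, where the trend is below 0, and SLC66A1 lies near the middle, where it is close to 0.

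With the trend on span removed, 14 of 17 members were still below 0, beside 50.6% of all genes. The median of the 17 was then -0.16, while their mean was -0.14 both as deposited and with the trend removed. SLC66A1 had a difference of -0.35 and was then the only member at least 20% lower, where 4.33% of all genes were. SLC33A2 then had -0.26 and SLC75A1 -0.25. SLC66A2 had -0.31, farther from 0 than without the removal, and SLC61A1 had -0.01. The genes higher with FOSL1 siRNA had between 0.04 and 0.09.

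**Figure D4:**
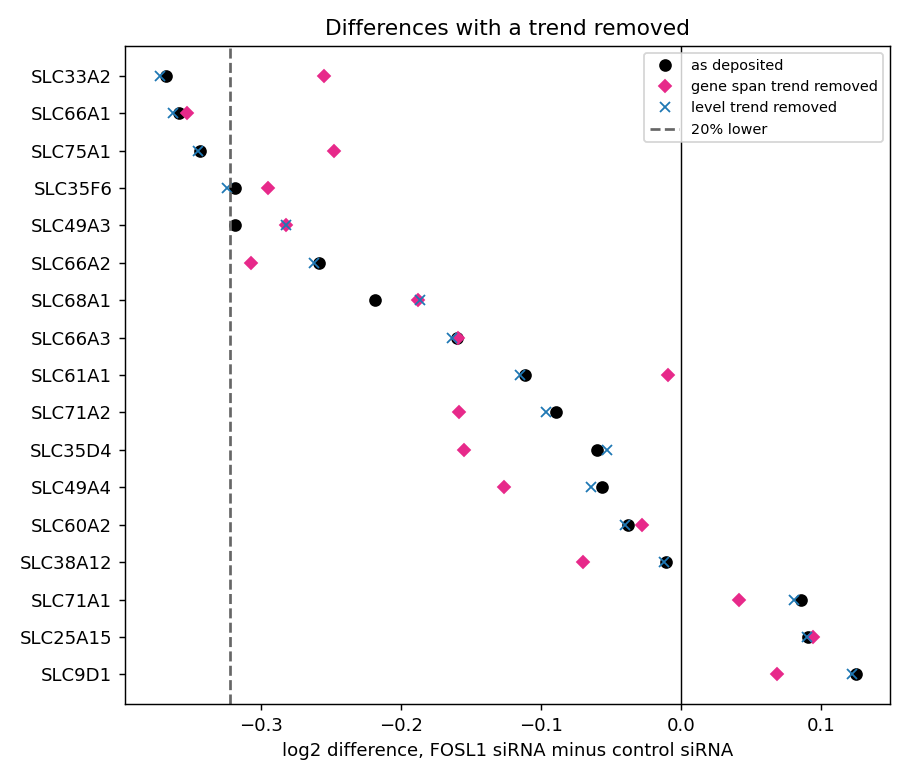
Log2 difference (horizontal axis, FOSL1 siRNA minus control siRNA) of each of the 17 solute carrier genes as deposited (circles), with the trend on gene span removed (diamonds) and with the trend on mean log2 value removed (crosses), with 20% lower dashed. Every gene keeps its side of 0 under both removals, and SLC33A2 and SLC75A1 move inside the dashed line when the span trend is removed.

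Other genes of transport and nutrient sensing were listed beside the solute carriers. Of 26 listed partners of carriers and other carriers, 20 were named under the listed symbol and 14 passed the level threshold. Of these 14, 0 were at least 20% lower or 25% higher, beside 5.91% and 7.38% of all genes. Their median difference was 0.02. The list also held MFSD10, an older symbol of SLC75A1 (-0.34), which is counted with the members and not among the 14. Among the 14, MFSD2A, a lysolipid carrier of the major facilitator superfamily, had the lowest difference, with 8.94 with FOSL1 siRNA and 9.20 with control siRNA. MTCH2, of the mitochondrial outer membrane, had the highest, with 11.57 with FOSL1 siRNA and 11.37 with control siRNA. BSG, the chaperone that brings lactate carriers to the cell surface, had a difference of -0.02, and the mitochondrial pyruvate carrier subunits MPC1 and MPC2 had -0.04 and 0.09. Of 26 listed ATP-driven pumps 1 was named, the lysosomal polyamine pump ATP13A2, with a difference of 0.26, and of 28 listed ABC transporters 0 were named.

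Of 23 listed genes of amino acid sensing by mTORC1, 16 passed the threshold. Among them 2 were at least 25% higher with FOSL1 siRNA, where 7.38% of all genes were. At least 20% lower were 0, beside 5.91% of all genes. Of the 16, 9 were below 0, beside 50.1% of all genes, and the median was -0.02. The 2 were MITF, which was at 9.09 with FOSL1 siRNA and at 8.73 with control siRNA, and SESN1, a stress-induced inhibitor of mTORC1, which was at 8.42 with FOSL1 siRNA and at 8.07 with control siRNA. LAMTOR4, a subunit of the lysosomal Ragulator complex, had the lowest difference, -0.15. MITF is also counted among the melanocyte lineage markers above, and SESN2 also in the amino acid response list below.

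Of 18 listed genes of the amino acid response, which ATF4 directs when amino acids run short, 13 passed. Of these, 1 was at least 25% higher, beside 7.38% of all genes, and 0 were at least 20% lower, beside 5.91%. Of the 13, 8 were below 0, beside 50.1% of all genes, and the median was -0.03. The gene at least 25% higher was DDIT3, with 8.53 with FOSL1 siRNA and 8.02 with control siRNA, and VLDLR had the lowest difference, -0.24. Of 21 listed genes of glucose and lactate metabolism, 10 were named and passed, with a median of -0.03. Of the 10, 1 was at least 20% lower, beside 5.91% of all genes. It was the glycolytic mutase PGAM1, with 10.15 with FOSL1 siRNA and 10.80 with control siRNA. PDHA1, of pyruvate dehydrogenase, had the highest difference, 0.15.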

How the data were processed

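Total RNA of 2 cultures, 100 ng each, was amplified and labelled with whole-transcript kits and hybridised to 1 Affymetrix array per condition, per the labels' protocols. The deposited values, 1 per probe set and array over 53427 probe sets, were taken as log2 intensities after their range. How the authors corrected background and combined probes, and any genome build, is not given in the sources used here. Sorted values of both arrays differed by at most 0.0301 at the same rank, as quantile normalization leaves them, so the values cannot show a shift in total RNA per cell. The precision of every value is limited by having 2 arrays.

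The table of probe set names gave 1 symbol to 16098 probe sets and several to 0. All 14884 genes were matched by Entrez ID to RefSeq (GRCh38.p14), and the brightest probe set stood for a gene. Loess trends used a fraction of 0.3 over the 7440 genes in statsmodels 0.14.6 under Python 3.11.15, and the calculation was tested on simulated data. The rule for named genes covered all 17 members, and in each other list the members with the highest and lowest difference. The members and lists were chosen with earlier results of these data known. A planned grouping by substrate left out the families of 5 members, so members were grouped by protein class after the data were seen. BSG, MPC1, MPC2, SESN1, the marker genes and the transcripts named in the closing section fell outside that rule and were named after their values were seen.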

Additional observations from a re-analysis of the deposited data

How the results depend on the processing

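No result had a replicate check, and with 1 array per condition no array could be left out and no paired analysis was possible because each condition had 1 sample. The alternatives of gene span counted in quintiles and of protein classes were chosen after seeing the data. Under centring on array medians, quantile normalization over named genes and removal of either trend, all 17 members kept their side of 0, and the largest move was 0.113, under the SD between probe sets of 0.169. The mean or median of probe sets changed no member by construction. The count at least 20% lower was 3 in the deposited values (beside 5.91% of all genes), 4 after quantile normalization over named genes (beside 6.05%), 4 with the level trend removed (beside 5.62%), 1 with the span trend removed (beside 4.33%) and 0 at a threshold of 2-fold (beside 0.0403%). With the filter at the 75th percentile 11 members were left, since fewer genes passed. Of the 11, 10 were below 0, beside 48.9% of all genes, and 3 were at least 20% lower, beside 3.65%. With no filter there were 20, of which 16 were below 0, beside 54.5% of all genes, and 3 were at least 20% lower, beside 9.80%. The mean difference of the members was -0.14. None of these counts says whether a difference would recur in other cultures.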

Other observations

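The table also names 18 transcripts whose symbols begin with SLC but are not of the form above, among them antisense and divergent transcripts of carrier genes and the steroid and bile acid carrier subunits SLC51A and SLC51B. Of these, 3 passed the level threshold. SLC9A3-OT1, a non-coding transcript, was at 9.58 with FOSL1 siRNA and at 9.42 with control siRNA. SLC25A21-AS1, an antisense transcript, was at 8.17 with FOSL1 siRNA and at 7.90 with control siRNA. SLC2A4RG, which encodes a regulator of the glucose transporter gene SLC2A4 and is no carrier itself, was at 8.83 with FOSL1 siRNA and at 9.20 with control siRNA. The antisense transcript of the cystine carrier gene, SLC7A11-AS1, lay far under the threshold, at 5.27 with FOSL1 siRNA and at 5.39 with control siRNA. The levels of these transcripts give no value for the carrier genes beside them.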
